A study of Bos taurus with 56 samples.

Results

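Described here are 272 genes of cattle muscle whose read counts were far higher in 1 library of each of 2 Nguni bulls than in the other libraries of the same bulls. They were chosen from the counts themselves. Of 20791 genes listed, 11199 had a mean count of at least 10 over all 42 libraries. Members are those in which library N008_3 exceeded the mean of N008_1 and N008_2 by at least 3, and library N215_2 exceeded the mean of N215_1 and N215_3 by at least 3, in log2(CPM + 1). CPM is a gene's count scaled by the total of its library, and a difference of 3 on this scale is 8-fold in CPM + 1. The rule therefore fixes that members are high in N008_3 and N215_2, and those values are given as a description without a test.

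RNA of the Longissimus dorsi, the long back muscle that forms the loin, was sequenced from bulls kept in a feedlot for 120 days. Bulls were of the Nguni, a Sanga breed, or the Bonsmara, a Sanga-related breed, and received feed of high (12.0 MJ of metabolizable energy per kg) or low energy (10.9 MJ per kg). The titles of the 42 libraries analysed fall into 14 stems of 3 libraries. Each stem was taken to be 1 animal, although no label says so, and p-values describe the spread among stems, which could be technical if they are not animals. The animals were 3 Bonsmara on high energy, 3 Bonsmara on low energy, 5 Nguni on high energy with N008 among them, and 3 Nguni on low energy with N215 among them. Animals N1 and N11 carry diets in the labels that differ from the tables they stand in, and the labels were followed.

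A piece of skeletal muscle holds muscle fibres and also vessels, nerve, connective tissue, fat and blood cells. Fibre transcripts, such as those of contractile proteins and energy metabolism, make up most of its RNA, and transcripts of rarer cells come in small amounts. In such bulk samples, more cells of a type and more RNA per cell cannot be told apart. The files list genes by Ensembl identifier without names, and the cattle gene table used here (37063 entries, RefSeq) matched 0 of these identifiers. The members are therefore described by level and pattern and not by function. The tissue could not be checked against muscle markers, and no marker list of other cells could be read.

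Library N008_3 held 20673557 counts and N215_2 held 11383790, inside the range of 8156040 to 78224599 in the 36 libraries of the other 12 animals. At least 1 count was found for 15496 genes in N008_3 and 15116 in N215_2, against 12250 to 15337 in the 36 libraries. The 10 genes with the most counts over all libraries took 25.1% of the counts in N008_3, against 36.3% in N008_1 and 29.6% in N008_2. They took 37.2% in N215_2, against 39.2% in N215_1 and 37.9% in N215_3. N008_3 thus had more genes detected than any of the 36 libraries. The part of depth or of these shares in the pattern was not tested.

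Members took 1.48% of all counts in N008_3 (95% exact binomial interval 1.47 to 1.48%, counting error only) and 2.36% in N215_2 (2.35 to 2.37%). The other libraries of these animals were at 0.0358% for N008_1, 0.0363% for N008_2, 0.0381% for N215_1 and 0.0407% for N215_3. The share was thus 40.96 times the mean of the other libraries in N008 and 60.0 times in N215. Over the 36 libraries of the other animals, the share ran from 0.0177 to 0.0634% with a median of 0.0391%. The 4 companion libraries lay inside that range, and N008_3 and N215_2 lay far above it. Summed over its 3 libraries, animal N008 had 0.642% of its counts in members, of which 96.8% came from N008_3. Animal N215 had 0.573%, of which 94.7% came from N215_2.

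**Figure D1:**
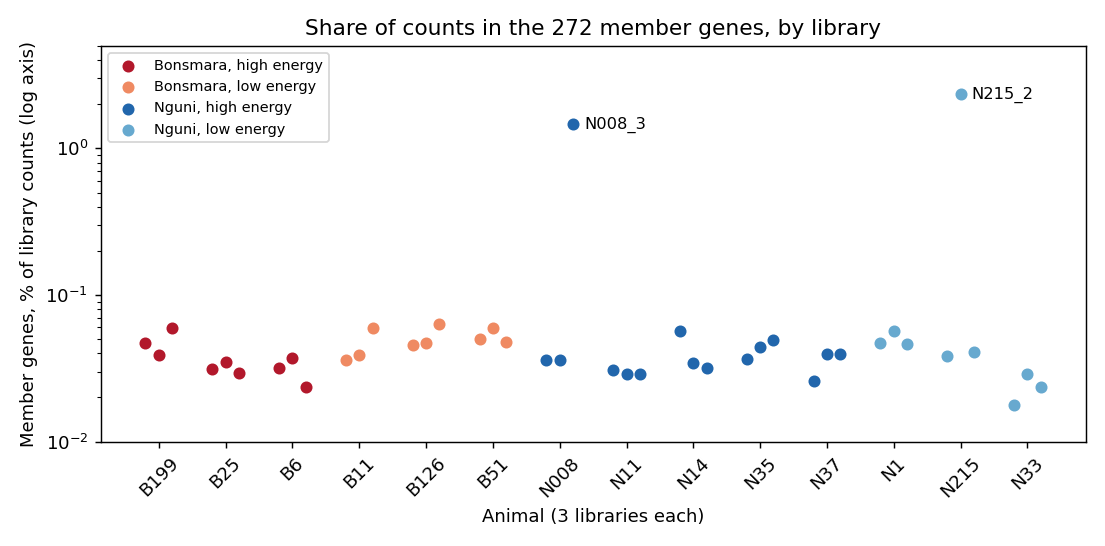
Share of each library's counts that fell in the 272 member genes (% of counts, log axis), with 3 points per animal for its 3 libraries and colours for the 4 groups of breed and diet. N008_3 (1.48%) and N215_2 (2.36%) stand above all other libraries, of which those of the other 12 animals lie at 0.0177 to 0.0634%.

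A single gene carried much of this share. ENSBTAG00000038748 was at 4180 CPM in N008_3 and at 9909 CPM in N215_2, from 86410 and 112799 counts. It was at 0.478 and 1.19 CPM in N008_1 and N008_2, and at 0.911 and 1.01 CPM in N215_1 and N215_3, from 8 to 22 counts. In the 36 libraries of the other animals it ran from 0 to 3.68 CPM with a median of 0.240, was at 0 in 2 of them, and had at most 30 counts. The differences were 11.18 in N008 and 12.30 in N215 on the log2(CPM + 1) scale. By level it was gene 35 of all genes in N008_3 and gene 21 in N215_2, and it made up 28.3% and 41.9% of the members' counts there. Without this gene the other members still held 1.06% of the counts in N008_3 and 1.37% in N215_2, against 0.0176 to 0.0634% in the 36 libraries.

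Second by the smaller of its differences came ENSBTAG00000013178. It was at 170.8 CPM in N008_3 and 342.6 CPM in N215_2, from 3531 and 3900 counts. Its companion libraries held 1, 0, 2 and 0 counts, and in the 36 other libraries it was at 0 in 22 and reached at most 5 counts. Outside the pair of libraries it thus had at most 5 counts anywhere. Its differences were 7.38 and 8.34.

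Over all members, the difference ran from 3.001 to 11.18 in N008 with a median of 3.84, and from 3.04 to 12.30 in N215 with a median of 4.05. Both differences were at least 4 for 91 members, at least 5 for 24, at least 6 for 6 and at least 7 for 3. The smaller difference was 3.001, 3.006 and 3.033 for the 3 members just inside the threshold, and 2.999, 2.996 and 2.994 for the 3 genes just outside. No gap separated members from the genes next to them.

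The threshold was met by 305 genes in N008_3 (2.72% of the 11199) and by 361 in N215_2 (3.22%). Members, the genes that met both (2.43%), were 89.2% of the first list and 75.3% of the second. Of the 33 genes that met it in N008_3 alone, 27 were at least 2 above their companions in N215_2 as well. Of the 89 that met it in N215_2 alone, 78 were at least 2 above in N008_3. A difference under 1 in the other animal was found for 2 genes of the first kind and 5 of the second. Most genes that met the threshold in 1 library alone were thus at least 2 above in the other too. The overlap is a description without a test. Among the genes kept, 270 passed the minimum on mean count only through N008_3 and N215_2.

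With the members counted in, 616 genes (5.50%) were at least 2 higher in both libraries and 1399 (12.5%) at least 1 higher. In contrast, 0 genes (0%) were at least 1 lower in both, and 0 were at least 1 higher in one and at least 1 lower in the other. The median difference of all 11199 genes was 0.19 in N008_3 and 0.18 in N215_2. Among non-members, the genes whose larger difference was most negative were ENSBTAG00000031774, at -1.03 in N008 and -0.78 in N215, and ENSBTAG00000016573, at -0.76 and -0.67. The first of these was also uneven between companion libraries, with 0 and 47 counts in N008_1 and N008_2 and 32 and 0 in N215_1 and N215_3. ENSBTAG00000016573 was at 14.2 CPM in N008_3 against 26.02 and 23.4, and at 7.64 CPM in N215_2 against 10.9 and 14.8. Genes that departed by at least 1 in the same direction in both libraries were therefore all higher. Genes lower by this size in a single library were not counted, and ENSBTAG00000031774 was such a gene in N008_3. The minimum on mean count also bears on this, since 270 of the genes kept passed it only through N008_3 and N215_2.

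**Figure D2:**
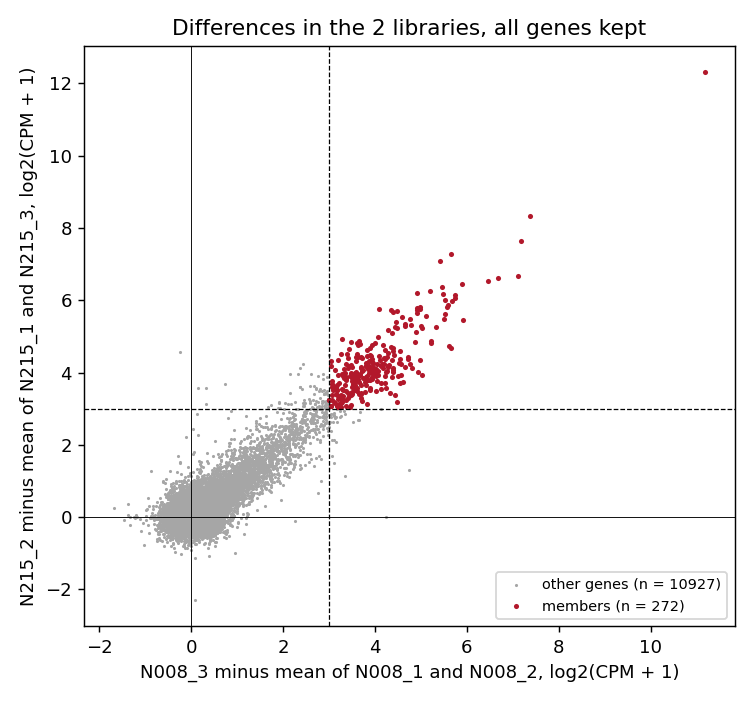
Difference between N008_3 and its companion libraries (x axis) and between N215_2 and its companions (y axis), in log2(CPM + 1), for the 11199 genes kept. Members are in red beyond the dashed lines at 3. The cloud extends toward the upper right, where ENSBTAG00000038748 lies at 11.18 and 12.30, with no gene at or below -1 on both axes.

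Members were raised to similar levels in both libraries. Their median was 26.8 CPM in N008_3, from 8.85 to 4180, and 32.02 CPM in N215_2, from 9.05 to 9909. Next below ENSBTAG00000038748, the highest members stood at 290.8 CPM in N008_3 and 490.3 CPM in N215_2. At least 100 CPM was reached by 18 members in N008_3 and by 29 in N215_2. In the companion libraries, medians were 0.658 and 0.682 CPM for N008_1 and N008_2 and 0.668 and 0.781 CPM for N215_1 and N215_3. The highest member there was at 13.1 CPM, and 16 to 31 members had no count.

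The ratio of the CPM in N215_2 to that in N008_3 had a median of 1.21 over members, with quartiles of 1.01 and 1.47. It was over 1 for 206 members and under 1 for 66. Ratios over 2 were found for 22 members and under 0.5 for 3, and all lay between 0.407 and 3.11. Members of high level in one library were thus high in the other. Across the 272 members, log2(CPM + 1) in the libraries had a Pearson correlation of 0.91, or 0.89 without ENSBTAG00000038748, and a Spearman correlation of 0.86. Genes are not independent replicates, and the rule itself removed members low in either library. No correlation of levels for other pairs of libraries is set beside these values, so they are not read as particular to this pair.

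Members were mostly genes of low level in this muscle. Their median CPM over the 36 libraries of the other animals was 0.631 at the middle member and 13.5 at the highest, against 7.41 at the middle of all genes kept. At least 1 count was found in all 36 libraries for 110 members (40.4%), against 90.2% of the 11199 genes. At the other end, 26 members were at 0 in at least 18 of the 36 libraries, and the most for any member was 35 of them. The same count over all genes kept is not given here, so the 26 are a description only. The minimum on mean count bears on this. Without N008_3 and N215_2, 131 of the members would have had a mean under 10 counts, so they entered only through those libraries and had to differ, and 141 would have passed.

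By level in the other animals, 76 members had a median under 0.25 CPM and made up 74.5% of the 102 genes kept in that range, a range where few genes met the minimum on mean count. Their medians were 20.6 CPM in N008_3 and 20.4 CPM in N215_2. A further 90 members lay between 0.25 and 1 CPM (8.68% of the genes there), with medians of 21.7 and 27.2 CPM. Between 1 and 4 CPM there were 82 members (2.87%), with medians of 36.2 and 41.99 CPM. At 4 CPM and over there were 24 members (0.333% of 7204 genes), with medians of 68.8 and 91.9 CPM. The median difference was 4.22 in N008 and 4.24 in N215 in the lowest range, and 3.56 and 3.76 in the highest. Both orders follow from the rule, which asks a higher level of genes that are higher elsewhere, and from the minimum on mean count, so nothing is read from them.

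Set against the other 12 animals, all 272 members were higher in N008_3 and in N215_2 than in any of the 36 libraries. Among all genes kept, 1630 (14.6%) were. The lower of the 2 values was at least 2.71 times the highest of the 36 libraries for every member, and at least 8 times for 197. Within animals, the standard deviation between libraries of the other 12 animals was 0.30 at the middle member, 0.33 at the middle of all genes kept and 0.66 at the most variable member. The smaller of a member's differences was at least 4.94 times its own standard deviation and 13.6 times at the median. Members lie at low CPM in those libraries, where adding 1 before the logarithm narrows the spread. This can raise the multiples, and the standard deviations of members and of all genes are not compared. These values describe the size of the departure and are no test, since the rule chose members by it.

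**Figure D3:**
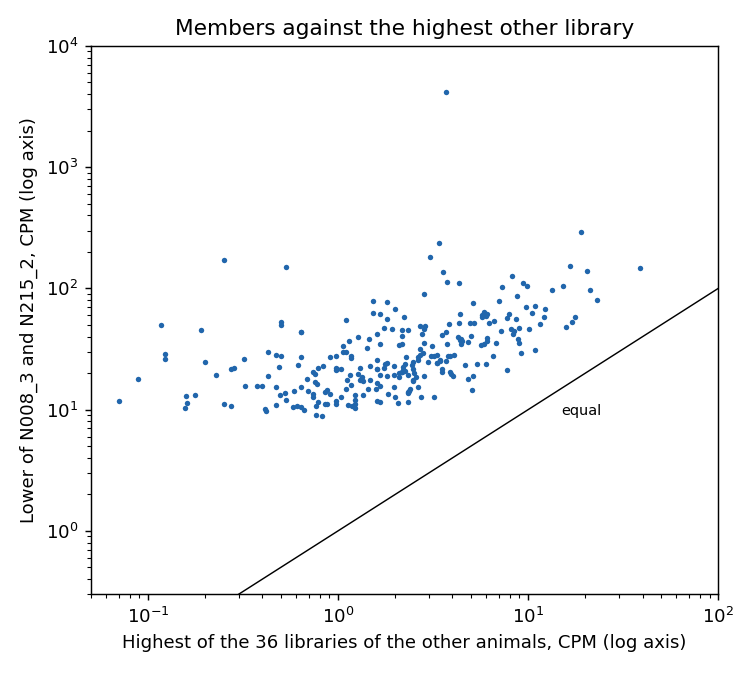
For each of the 272 members, the lower of its CPM in N008_3 and N215_2 (y axis) against its highest CPM in any of the 36 libraries of the other 12 animals (x axis), both on log axes. All points lie above the line of equal values, the nearest by 2.71 times.

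The 36 libraries of the other animals took no part in the rule's differences, so they show how members behave elsewhere. Each library was set against the mean of the other 2 libraries of its animal. The median difference of members ran from -0.29 in N37_1 to 0.33 in B11_3, and that of all genes kept from -0.64 to 0.45. Members lie at low CPM, where adding 1 before the logarithm narrows differences, so these ranges are not compared.

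Counts of members at least 1 above their companions were highest in N14_1 with 20 (7.35%, against 7.12% of all genes kept) and N33_2 with 18 (6.62%, against 6.2%). Both were near the background. B11_3 followed with 16 (5.88%, against 2.18%) and N35_3 with 8 (2.94%, against 0.384%), both above it. Members lie at lower CPM than most genes kept, and the part of level and depth in these shares was not tested. Only 1 member in 1 of the 36 libraries reached a difference of 3, and none beside it reached 2 (B11_3 background at 3: 0.0268% of all genes kept). This was ENSBTAG00000034973 in B11_3, singled out after its values were seen, with 96 counts (9.41 CPM) there, none in B11_1 and B11_2, and none in 25 of the 36 libraries. In N008_3 it was at 140.6 CPM and in N215_2 at 111.7 CPM. Toward lower values, N37_1 had 26 members at least 1 below its companions, where 14.5% of all genes kept were that low, and it had 12256 genes detected.

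Each member was also assigned to the library of the 36 in which it was highest. N35_3 held this place for 41 members, B11_3 for 34, and B126_3 for 19. N35_3 had the smallest total of all libraries, at 8156040 counts. The members' share of counts was nevertheless 0.0490% in N35_3, 0.0593% in B11_3 and 0.0634% in B126_3, so no library of the other animals came near the share of N008_3 or N215_2.

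**Figure D4:**
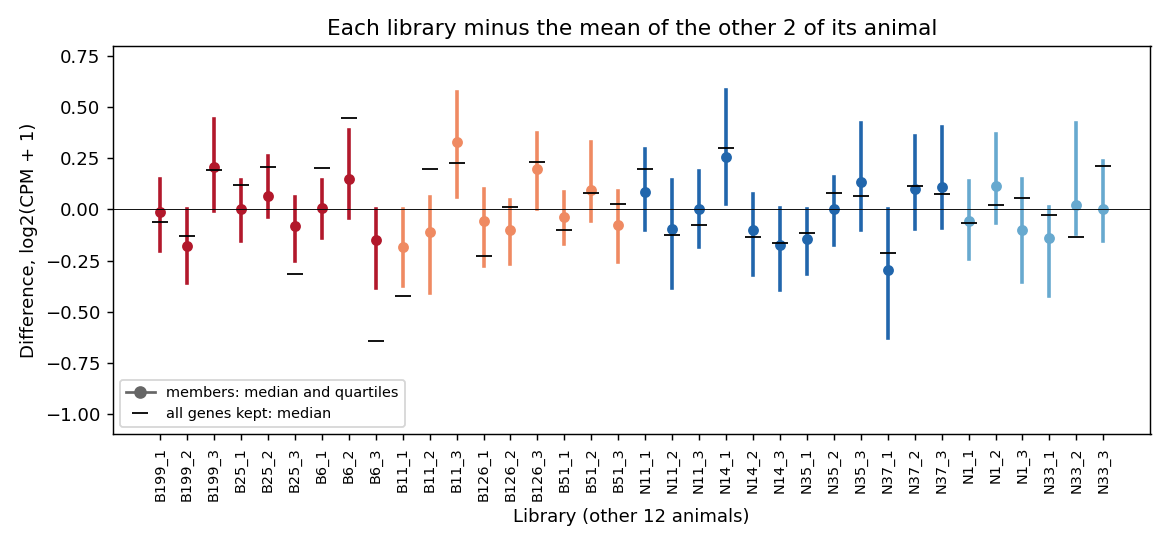
Each of the 36 libraries of the other 12 animals minus the mean of the other 2 libraries of its animal, in log2(CPM + 1). Points and bars are the median and quartiles of the 272 members, coloured by breed and diet as in the plot of shares, and black marks are the median of all genes kept. Member medians lie between -0.29 and 0.33.

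Pairs of members were about as weakly correlated in the other animals as pairs of genes in general. Over the 36 libraries, which come in threes from 12 animals and share depth effects, the median Pearson correlation between pairs of members was 0.22. It was 0.24 between pairs of all genes kept and 0.17 between a member and a non-member. A correlation of at least 0.5 was found in 14.4% of member pairs and 20.2% of all pairs. Members are also lower in level than most genes, and the part of level in these correlations was not tested. Differences between animals made up 50.1% of the sum of squares of the middle member over these libraries, against 62.1% for the middle of all genes kept. Of the members, 131 passed the minimum on mean count only through N008_3 and N215_2. The part of this and of level in the sums of squares and in the correlations was not tested.

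Breed and diet were compared in the 12 animals that took no part in the rule's differences. The question was whether members follow either factor where N008 and N215 play no part. The animals compared were 6 Bonsmara, 4 Nguni on high energy and 2 Nguni on low energy. Their libraries entered the rule only through the minimum on mean count. Members' share of counts by animal was 0.0462%, 0.0314% and 0.0316% in Bonsmara on high energy and 0.0439%, 0.0515% and 0.0528% in Bonsmara on low energy. It was 0.0297%, 0.0422%, 0.0418% and 0.0355% in Nguni on high energy, and 0.0503% (N1) and 0.0242% (N33) in Nguni on low energy. Breeds overlapped, and so did diets within each breed.

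Of the 272 members, 231 passed the filter on low counts in these 12 animals and were tested with 13257 genes in all. Between breeds, averaged over diets, edgeR called 0 members at an adjusted p under 0.05, with 0% of all genes called. At an unadjusted p under 0.05 there were 21 members (9.09%), against 10.1% of all genes, 4 of them higher in Nguni (background 5.42%) and 17 lower (background 4.65%). The members' median log2 fold change of Nguni over Bonsmara was -0.20, against 0.00 over all genes, and 165 of the 231 had a negative value. This median is a description of the members and was not tested. It was -0.08 without N33, with 7 members at an unadjusted p under 0.05 (2.87%, against 4.73% of all genes), and -0.39 without N1, with 60 (24.7%, against 20.8%). DESeq2, which fitted all 272 members, called 0 of them and 27 of 17765 genes. A gene that DESeq2 left without an adjusted p counted as not called. At an unadjusted p under 0.05 DESeq2 had 22 members (8.09%) and 9.06% of all genes.

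ENSBTAG00000002190 was at 0.554 to 0.851 CPM in the 6 Nguni with a median of 0.598, and at 0.916 to 1.25 CPM in the 6 Bonsmara with a median of 1.06. The breeds did not overlap. Its log2 fold change was -0.75 (standard error, SE, 0.24, edgeR adjusted p = 0.467). ENSBTAG00000004066 was at 0.108 to 0.392 CPM in Nguni with a median of 0.238, and at 0.286 to 1.04 CPM in Bonsmara with a median of 0.678, with overlap. Its log2 fold change was -1.43 (SE 0.42, edgeR adjusted p = 0.467).

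In the other direction, ENSBTAG00000019376 was at 0.277 to 1.14 CPM in Nguni with a median of 0.368, and at 0.127 to 0.275 CPM in Bonsmara with a median of 0.235. All Nguni values were above all Bonsmara values, the highest being that of N35. Its log2 fold change was 0.99 (SE 0.39, edgeR adjusted p = 0.467). ENSBTAG00000018093 was at 0.476 to 1.20 CPM in Nguni and 0.141 to 0.672 CPM in Bonsmara, with overlap (log2 fold change 0.96, SE 0.39, edgeR adjusted p = 0.470). In all, 2 members were higher in every Nguni than in every Bonsmara, the other being ENSBTAG00000008082 (log2 fold change 0.40, SE 0.18, edgeR adjusted p = 0.489), named after its values were seen, and 1 member was lower. Over all genes tested, 0.294% were separated in each direction, against 0.866% and 0.433% of the members tested.

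Between diets, averaged over breeds, edgeR called 0 members (0% of all genes). Only 3 members had an unadjusted p under 0.05, all lower on high energy, which is 1.30% against 4.36% of all genes (1.81% higher and 2.55% lower). Without N1 there were 21, of which 18 were higher and 3 lower, which is 8.64% against 8.19% of all genes. DESeq2 called 0 members and 1 of 17765 genes, with 5 of 272 members (1.84%) and 3.92% of all genes at that level. The median log2 fold change of high over low energy was -0.11 for members and 0.00 for all genes. Its sign was not stable, at 0.03 with N1 and N11 placed as in the deposited tables and 0.14 without N1. No member separated the 7 animals on high energy from the 5 on low energy, where 0.0905% of all genes did so with higher and 0.0603% with lower values.

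The member with the smallest p for diet was ENSBTAG00000020166. It was at 1.88 to 4.33 CPM on high energy with a median of 2.45, and at 2.74 to 8.13 CPM on low energy with a median of 5.65. Its log2 fold change was -0.90 (SE 0.27, edgeR adjusted p = 0.9999), and the highest value was that of N1. With N1 and N11 placed as in the deposited tables it was 0.09. ENSBTAG00000002313 came next, at -0.70 on the log2 scale (SE 0.28, edgeR adjusted p = 0.9999), at 0.668 to 1.04 CPM on high and 0.612 to 1.91 CPM on low energy. The 2 members of smallest p among those with higher values on high energy were ENSBTAG00000017255 (log2 fold change 0.54, SE 0.26) and ENSBTAG00000000853 (0.77, SE 0.42), both at an edgeR adjusted p of 0.9999 and with overlapping diets.

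**Figure D5:**
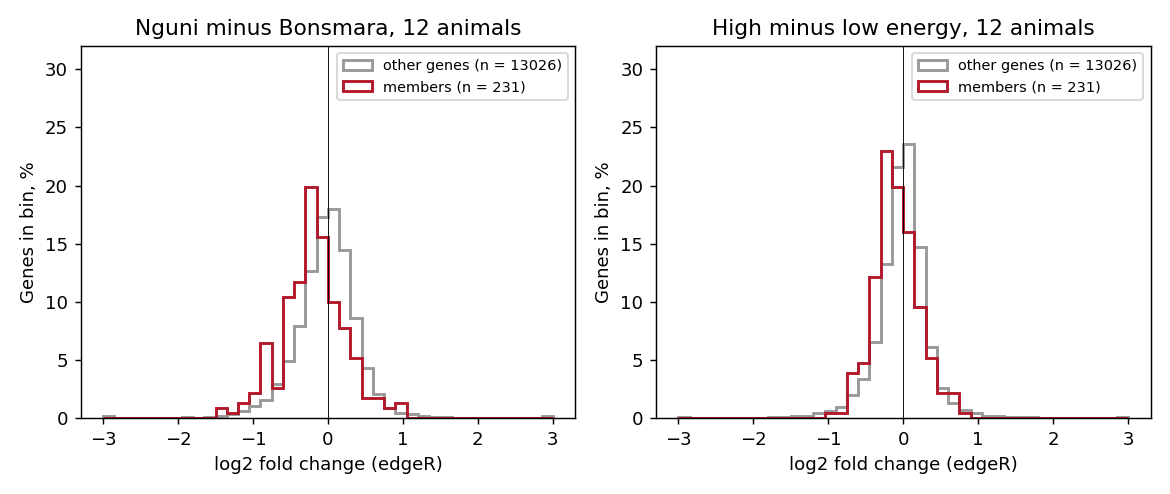
Distribution of log2 fold changes of Nguni over Bonsmara (left) and of high over low energy (right) in the 12 animals other than N008 and N215, as % of genes per bin, with values beyond the axis placed at its ends. The 231 members tested (red) have medians of -0.20 and -0.11, and 0 members were called in either comparison.

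Whether the diets differed alike in both breeds was tested as an interaction. EdgeR called 0 members (0% of all genes), with 11 at an unadjusted p under 0.05, 4.76% against 9.38% of all genes, of which 10 had a more positive effect of high energy in Nguni (background 5.27%) and 1 a more negative one (4.11%). DESeq2 called 0 members and 9 of 17765 genes, with 13 of 272 members (4.78%) and 8.52% of all genes at that level. The median log2 difference of effects was 0.41 for members and -0.01 for all genes, a description that was not tested. It was 0.11 without N33, the animal with the lowest share of members, 0.80 without N1 and 0.67 with the tables' placing of N1 and N11.

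ENSBTAG00000020387 was at 1.09 ± 0.51 CPM on high (SD, n = 4) and 0.468 ± 0.122 CPM on low energy (n = 2) in Nguni, and at 0.617 ± 0.020 and 1.02 ± 0.36 CPM in Bonsmara (n = 3 each). Its log2 difference of effects was 1.92 (SE 0.64, edgeR adjusted p = 0.516). ENSBTAG00000011789 had the same order, at 1.58 ± 0.40 and 1.17 ± 0.06 CPM in Nguni and 1.15 ± 0.52 and 2.44 ± 0.14 CPM in Bonsmara (1.53, SE 0.52, edgeR adjusted p = 0.516). ENSBTAG00000006893 had the opposite order, with a difference of -1.78 (SE 0.75, edgeR adjusted p = 0.516). ENSBTAG00000023028 was at -0.86 (SE 0.43, edgeR adjusted p = 0.531). None of these passed the adjustment.

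Including N008_3 and N215_2 changes how members appear between breeds, since both animals are Nguni. With all 42 libraries summed by animal, 244 members were tested and 134 (54.9%) had an unadjusted p under 0.05, all higher in Nguni, against 8.65% of all genes in either direction. The median log2 fold change of Nguni over Bonsmara was 1.76 over the members tested, and edgeR called 0. The rule used these libraries, so this describes their weight in the comparison. They were 134 of the 1144 genes at that level. With only N008_3 and N215_2 left out and 14 animals kept, the median was -0.13, with 19 members of 225 (background 9.14%) at an unadjusted p under 0.05. One of the pair came from each diet in Nguni, and the members' median for diet was -0.24 with all libraries and -0.17 without the pair. Leaving out only the pair keeps their companion libraries, which the rule also used. The breed and diet values without the pair are therefore not independent of the rule either.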

How the data were processed

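The authors deposited 4 tables of estimated counts per gene. Trimmomatic, FastQC, Salmon and DESeq2 are listed in the submitters' processing notes with neither role nor version. Per the labels' protocols, the muscle was flash-frozen, and Trizol and a TruSeq kit served for RNA and libraries. Build, annotation and strandedness: not given in the sources used here. Each of the 42 libraries stands in 2 tables with identical columns and was taken once, and 14 of the 56 labelled samples were not analysed here. All values were whole, so rounding changed none.

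CPM for the rule used plain library totals. For tests, the 3 libraries of an animal were summed, genes filtered with filterByExpr (minimum count 10), scaled by TMM and fitted with edgeR 4.0.16 (R 4.3.3) as a robust quasi-likelihood model with a mean per group. N008 and N215 were left out because the rule used them, which left 8 residual degrees of freedom. All p-values are two-sided and were adjusted by Benjamini-Hochberg, with edgeR and limma over all genes tested. DESeq2 kept its default filter, which can leave genes of low counts without an adjusted p. Such genes counted as not called. CPM in the breed and diet comparisons are TMM-adjusted. Fold changes are on the log2 scale, and each SE was derived from the F statistic. Alternatives used DESeq2 1.42.0, limma 3.58.1, other filters, scalings and sets of animals. The rule and the fit were also run on simulated counts with planted changes, only to check that the code finds them. The counts for the rule were simulated without spread beyond counting error, unlike the data. These runs bear on no result given here.

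Members and lists were chosen with earlier results of these data known. Genes named by identifier are the 2 members with the largest smaller difference, the 2 non-members with the most negative larger difference, and per comparison the 2 higher and 2 lower members of smallest p. The lists of cell type markers prepared by symbol could not be applied.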

Additional observations from a re-analysis of the deposited data

Results flagged for a closer look

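Among the 22 sets of 4 to 10 values checked, 4 held a value whose gap to its neighbour was large against the range of its group, where chance would give this in about 1 in 20. All 4 restate the rule. By library among Nguni on low energy, N215_2 had a members' share of 2.36% with the next library at 0.0565%, and a median member level of 5.05 in log2(CPM + 1) with the next at 1.05. By animal among Nguni on high energy, N008 had a members' share of 0.642% with the next animal at 0.0422%, and a median level of 3.67 with the next at 0.83. The group of Nguni on high energy holds 15 libraries, above the size checked, so N008_3 was checked only through its animal. No value of the named members stood apart in the 4 Nguni on high energy other than N008.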

How the results depend on the processing

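The number of members moved with the rule's settings: 419 with a pseudocount of 0.25, which held all 272, 91 with a mean count of at least 50, 616 with a difference of at least 2 and 91 with a difference of at least 4. It was 361, 283 and 217 with a pseudocount of 0.5, no filter and TMM-adjusted totals. The share of counts in members was 1.20% in N008_3 and 2.07% in N215_2 on TMM-adjusted totals. The number of members called was 0 for breed, diet and their interaction under all 21 alternatives each, from 0 to 0 with single animals left out. Genes called over the whole table reached 74 for breed without N1, 37 with limma on libraries and 27 with DESeq2, and 9 for the interaction with DESeq2. The smallest adjusted p of a member over these alternatives was 0.0504 for breed, 0.208 for diet and 0.0572 for the interaction. With single animals left out, members at an unadjusted p under 0.05 ran from 7 (without N33, 2.87% against 4.73% of all genes) to 60 (without N1, 24.7% against 20.8%) for breed. They ran from 1 (without B6, 0.437% against 3.31%) to 21 (without N1, 8.64% against 8.19%) for diet, and from 4 (without N35, 1.75% against 7.21%) to 57 (without N1, 23.5% against 22.6%) for the interaction. The counts over all genes moved with those of the members. Without N1 or N33, Nguni on low energy has 1 animal, which is assumed to vary like the others. With N1 and N11 placed as in the deposited tables they were 45 (19.5% against 15.2% of all genes), 7 (3.03% against 2.73%) and 68 (29.4% against 25.7%). Of 250 values of the 12 named members under alternatives, 3 changed sign. ENSBTAG00000004066 and ENSBTAG00000002190 were at 1.49 and 2.78 for breed with all 42 libraries, and ENSBTAG00000020166 at 0.088 for diet with the tables' placing. No paired analysis was possible because the numbers in the titles were taken to count libraries within an animal and join no animals across groups. Depth limits the members of lowest level, for which a count of 0 in a library does not show absence.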
